A study of Rattus norvegicus with 15 samples.

Results

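The mucosa of the stomach and of the colon, the ends of the rat digestive tract sampled here, was set against that of the small bowel between them. The 6 samples of stomach and colon and the 9 samples of duodenum, jejunum and ileum make up all 15 samples of the series, 3 in each of 5 segments. The contrast was the mean of stomach and colon minus the mean of the 3 small bowel segments, each segment with equal weight. A gene was counted as higher or lower at both ends when limma called this contrast (adjusted p under 0.05) and the means of stomach and of colon both lay on the same side of all 3 small bowel means. Of 33646 genes tested, 3248 were higher (9.65%) and 1637 lower (4.87%) at both ends. Adjusted p-values for this contrast are limma's, over all genes, and the side requirement itself was not tested. Being counted does not mean a call at each end. Of the 3248 higher genes 1284, and of the 1637 lower genes 642, were called both in stomach minus small bowel and in colon minus small bowel. The samples were suspensions of mucosal cells from male Sprague Dawley rats without treatment, except that the label of ileum 3 gave neither strain nor sex, and no age was given. The cells were freed from the everted bowel with pronase and separated by elutriation. The text of the series names 3 independent isolations without saying whether they were of different animals. The spread that the p-values rest on may therefore be technical.

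The small bowel carries out most nutrient absorption. Its enterocytes split sugars and peptides at the brush border, take up the products, and pack dietary fat into lipoproteins for export. The stomach secretes acid, pepsinogens and mucus, and the colon recovers water and salt beneath a thick mucus layer. Hepatocyte nuclear factors are known to drive much of the absorptive program, and Hox genes mark position along the embryonic gut tube.

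Levels are given as the log2 processed signal of a gene's brightest probe minus the 75th percentile of the sample, so that 0 is that percentile. They serve to compare samples within a gene, not genes with each other. The share of probes well above background ran from 44.2% in ileum 1 and 52.2% in jejunum 1 to 97.1% in stomach 3. Between samples of one segment, correlations across genes (which are not independent replicates) ran from 0.916 to 0.988. No slide, scan day or version of the scanner software held both an end sample and a small bowel sample, so a batch and the difference between ends and small bowel cannot be told apart. All 3 colon samples came from 1 slide, colon 1 and colon 2 as the channels of 1 array, and with them averaged as 1 sample the counts were 2247 higher and 1264 lower. A probe passed as well above background by a stricter multiple of the background's spread in the small bowel files (13) than in the stomach files (2.6). The headers of the colon files gave no such multiple. Counts of samples that passed, and whether a fold is given as a bound, are therefore not alike between segments. The markers shown for stomach, ileum and colon followed the labels: mean Atp4a was 5.81 in the stomach and -2.11 or less elsewhere, the ileal bile acid binding protein Fabp6 was 5.62 in the ileum and -0.53 or less elsewhere, and the colonic carbonic anhydrase Car1 was 6.98 in the colon and 1.41 or less elsewhere. None is shown for the duodenum or jejunum alone. Of the marker genes chosen for the comparison, Car2 and Hoxa4 were higher and Mttp, Si and Slc2a5 lower at both ends.

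Without the requirement on the side, limma called 4491 genes as higher (13.3%) and 3533 as lower (10.5%), so the requirement left out 1243 higher and 1896 lower calls. The median difference was 1.15 on the log2 scale among genes higher at both ends and 1.20 in size among those lower, against a median of 0.10 over all genes tested. Differences over 16-fold were found in 60 of the 1637 lower and 42 of the 3248 higher genes, and differences over 4-fold in 309 and 445. The 6 end samples lay entirely above the 9 small bowel samples for 1142 of the higher genes and entirely below them for 579 of the lower ones, beside 3.48% and 1.75% of all genes. The rule chose genes by these same values. Larger differences and less overlap than over all genes therefore follow from it and are not further support. When all genes were split into 3 equal groups by mean brightness, 947 lower genes were in the brightest group and 147 in the dimmest, and 1490 and 762 of the higher genes.

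The leading genes above the small bowel were taken from 417 that were called at each end, did not overlap between samples and had an established symbol. By the gap between the nearer end and the nearest small bowel segment they were Abo, Spp1, Akr1c15, Pllp, Ttc12, Clec14a, Kazn, Car2, Armh4, Pls3, Sftpd and Ndrg2. Both ends are compared with the same 9 small bowel samples, so a call at one end is not independent of a call at the other. Car2, the cytosolic carbonic anhydrase that supplies protons and bicarbonate to secreting cells, read 5.87, 5.46 and 5.75 in the stomach and 6.17, 6.07 and 6.17 in the colon. In the small bowel it ran from -1.72 to 2.91 (median 0.67). The lowest end sample lay far above the highest small bowel sample, and the small bowel means themselves went from 2.27 in the duodenum through 1.39 in the jejunum to -0.72 in the ileum (adjusted p = 0.011 over these segments). Car2 was 31.8-fold higher at the ends (4.99 ± 0.39 SE, adjusted p = 8.71e-08), 26.2-fold in the stomach and 38.5-fold in the colon.

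Abo, the glycosyltransferase of the A and B blood group antigens, read 1.26, 0.88 and 1.09 in the stomach and 0.75, 0.81 and 1.66 in the colon. Its small bowel samples ran from -3.82 to -2.45 (median -3.27). The ends lay together, with a stomach minus colon difference of 0.12 ± 0.41 SE, and stood 18.5-fold above the small bowel (4.21 ± 0.26 SE, adjusted p = 5.43e-09). Akr1c15, an aldo-keto reductase, read 5.50, 5.07 and 5.46 in the stomach and 4.52, 4.52 and 4.68 in the colon. Its small bowel samples ran from -4.07 to 0.84 (median -1.26) and differed by segment, from 0.57 in the duodenum to -3.07 in the ileum (adjusted p = 0.00011). The ends did not overlap them and were 70.5-fold higher (6.14 ± 0.27 SE, adjusted p = 1.54e-10).

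Sftpd, the collectin surfactant protein D that binds microbial sugars at mucosal surfaces, read 4.09, 3.78 and 4.17 in the stomach and 3.05, 2.98 and 3.04 in the colon. The small bowel ran from -1.41 to -0.12 (median -0.88). The stomach was the higher of the ends, both stood clear of the small bowel, and the difference was 20.5-fold (4.35 ± 0.16 SE, adjusted p = 2.18e-11). Pllp, the membrane proteolipid plasmolipin, read 2.25, 1.57 and 2.08 in the stomach and 1.66, 1.73 and 2.44 in the colon. Its small bowel samples ran from -2.68 to -1.22 (median -1.92). The groups lay clear of each other, and the ends were 14.6-fold higher (3.87 ± 0.26 SE, adjusted p = 1.52e-08). Ndrg2 read 3.25, 2.91 and 3.46 in the stomach and 4.89, 4.95 and 4.90 in the colon, with the small bowel from -0.59 to 0.31 (median -0.23). The colon was the higher end here, 33.4-fold above the small bowel against 10.4-fold for the stomach.

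For several leading genes the small bowel signal was near the detection limit. Their fold is then a bound, taken against the dimmest probe that passed as well above background in each sample. Spp1, the secreted phosphoprotein osteopontin, passed in 1 small bowel sample of 9 and was at least 21.7-fold higher at the ends (5.47 ± 0.34 SE, adjusted p = 5.19e-09). Armh4 passed in 0 small bowel samples and in all 6 end samples, at least 5.86-fold higher. Clec14a, a lectin-like receptor known from endothelium, was at least 31.2-fold higher, and Kazn, a cell junction protein, at least 11.4-fold. The size rested on the probe for both. By plain segment means a second probe gave 1.29 for Clec14a and 0.68 for Kazn on the log2 scale, against 5.35 and 4.23. Pls3, an actin-bundling plastin, was 36.9-fold higher, with probes at 5.17 and 1.96. Ttc12, a protein of ciliary dynein assembly, was 22.2-fold higher. All 12 genes stayed called when any 1 sample was left out, with log2 differences from 3.76 to 6.27. Genes chosen for wide gaps without overlap in these samples are likely to stay called, so this is not independent support. With normexp background correction at an offset of 50, which by construction shrinks differences at low signal, all 12 were called at 1.59 to 5.64, with 7 of them moved by over 1.5-fold.

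**Figure D1:**
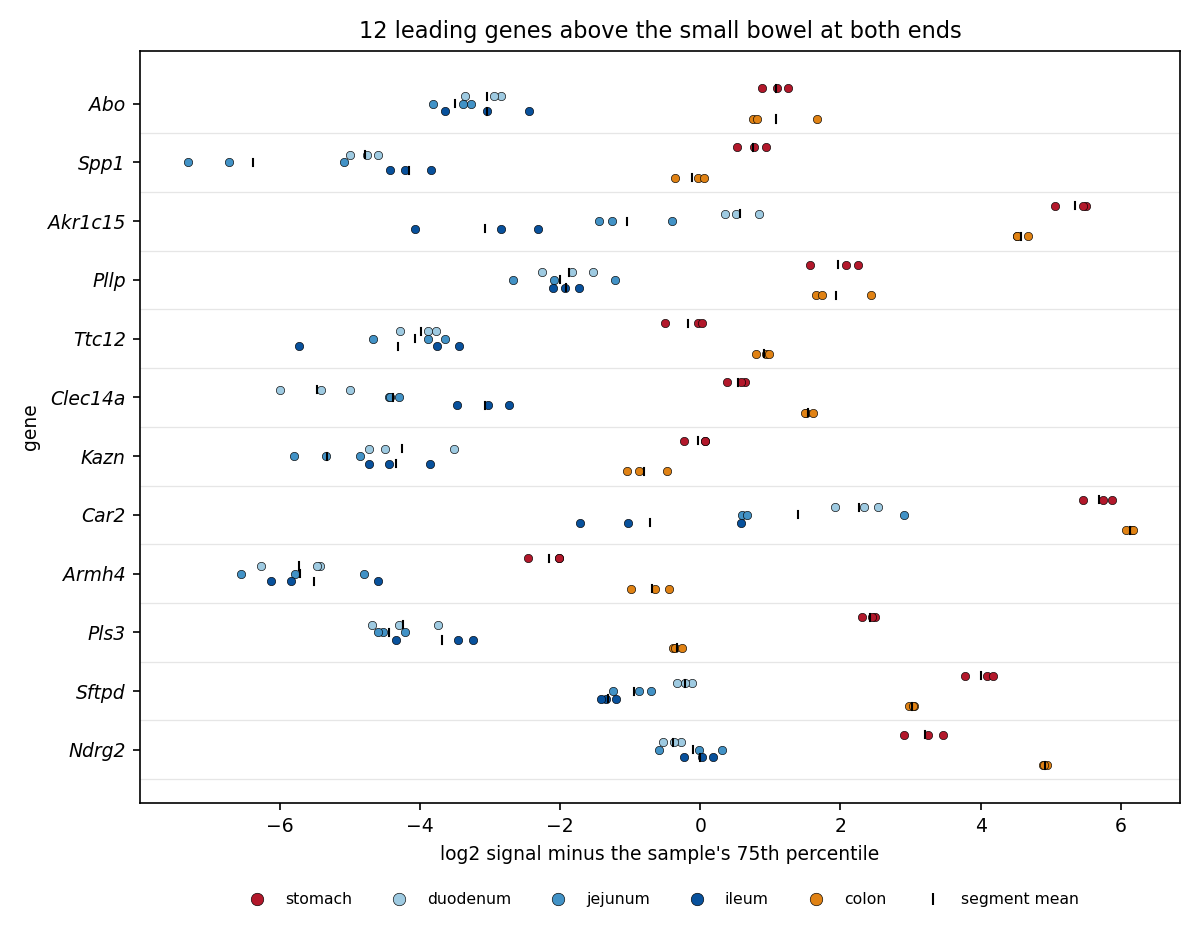
Log2 signal minus the sample's 75th percentile (horizontal axis) in each of the 15 samples for the 12 leading genes above the small bowel at both ends (vertical axis), with points coloured by segment and a black bar at each segment mean. For Car2 the 6 end samples sit between 5.46 and 6.17, all above the highest small bowel sample at 2.91.

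Below the small bowel, the leading genes chosen in the same way from 311 were Mttp, Si, Hnmt, Otc, Slc2a5, Bst1, Apoa1, Slc15a1, Samhd1, Rbp2, Defa24 and Clca2. Si, the sucrase-isomaltase of the brush border, read -5.40, -4.47 and -4.91 in the stomach and -5.64, -5.36 and -6.47 in the colon. In the small bowel it ran from 1.53 to 6.76 (median 3.96). It passed as well above background in 2 of 3 stomach samples and 0 of 3 colon samples, and it was at least 386-fold lower at the ends (-9.13 ± 0.44 SE, adjusted p = 3.42e-10), 426-fold in the stomach and at least 350-fold in the colon.

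Mttp, the microsomal triglyceride transfer protein that loads fat onto apolipoprotein B, read -5.56, -5.89 and -7.04 in the stomach and -5.19, -4.64 and -5.97 in the colon. Its small bowel samples ran from 2.85 to 6.61 (median 3.90). The ends were at least 742-fold lower (-9.64 ± 0.40 SE, adjusted p = 8.53e-11), but the size rested on the probe. By plain segment means the other probe gave -3.44 on the log2 scale against -9.72, and without jejunum 1 it was the brighter one and the fit gave -3.37. Both probes placed the ends below the small bowel.

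Slc2a5, the fructose transporter GLUT5, read -6.73, -7.00 and -6.82 in the stomach and -4.64, -5.43 and -5.47 in the colon. Its small bowel samples ran from -0.84 to 5.09 (median 1.99). It passed as well above background in all 9 small bowel samples and in none of the 6 end samples, and it was at least 133-fold lower (-7.73 ± 0.44 SE, adjusted p = 2.03e-09). Slc15a1, the PEPT1 carrier of short peptides, read -5.86, -4.84 and -4.41 in the stomach and -2.25, -1.75 and -1.94 in the colon, with the small bowel from 2.48 to 5.79 (median 3.03). It was 334-fold lower in the stomach and 40.0-fold in the colon, and the ends differed from each other (-3.06 ± 0.64 SE, adjusted p = 0.0015). Apoa1, the main protein of high density lipoprotein, was 94.1-fold lower (-6.56 ± 0.44 SE, adjusted p = 1.36e-08). Rbp2, which binds newly absorbed retinol in enterocytes, was 95.8-fold lower (-6.58 ± 0.42 SE, adjusted p = 6.71e-09).

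Other leading genes act on nitrogen compounds, nucleotides or microbes. Hnmt, which inactivates histamine by methylation, read -5.00, -5.07 and -4.81 in the stomach and -5.74, -6.36 and -6.54 in the colon. Its small bowel samples ran from 2.28 to 3.79 (median 3.20). The 9 samples were close together and far above the ends, and Hnmt was at least 245-fold lower there (-8.70 ± 0.22 SE, adjusted p = 1.68e-13). Otc, which makes citrulline as part of the urea cycle, read -3.81, -4.36 and -4.59 in the stomach and -2.96, -2.53 and -3.68 in the colon. In the small bowel it ran from 2.06 to 3.63 (median 3.24). The groups lay far apart, and the ends were 113-fold lower (-6.82 ± 0.30 SE, adjusted p = 1.54e-10). Bst1, an ecto-enzyme that uses NAD, was 69.2-fold lower and Clca2 at least 19.2-fold. Samhd1, which degrades deoxynucleotides, was 33.1-fold lower, with probes at -5.03 and -2.55 on the log2 scale. Defa24, a Paneth cell defensin, read -3.30, -3.63 and -4.13 in the stomach and 0.73, -2.42 and -3.07 in the colon, with the small bowel from 0.75 to 6.26 (median 4.85). Colon 1 stood apart from the other end samples, next to the lowest small bowel sample. Defa24 was 97.9-fold lower (-6.61 ± 0.86 SE, adjusted p = 2.55e-05); the difference was -7.53 without colon 1 and -5.83 without jejunum 3. All 12 genes stayed called when any 1 sample was left out, which their choice by wide gaps without overlap favours. Of the 180 values so obtained 3 moved by over 1.5-fold, those of Mttp and Defa24. With normexp all 12 were called at sizes of 1.83 to 6.53 on the log2 scale, with 10 of them moved by over 1.5-fold.

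**Figure D2:**
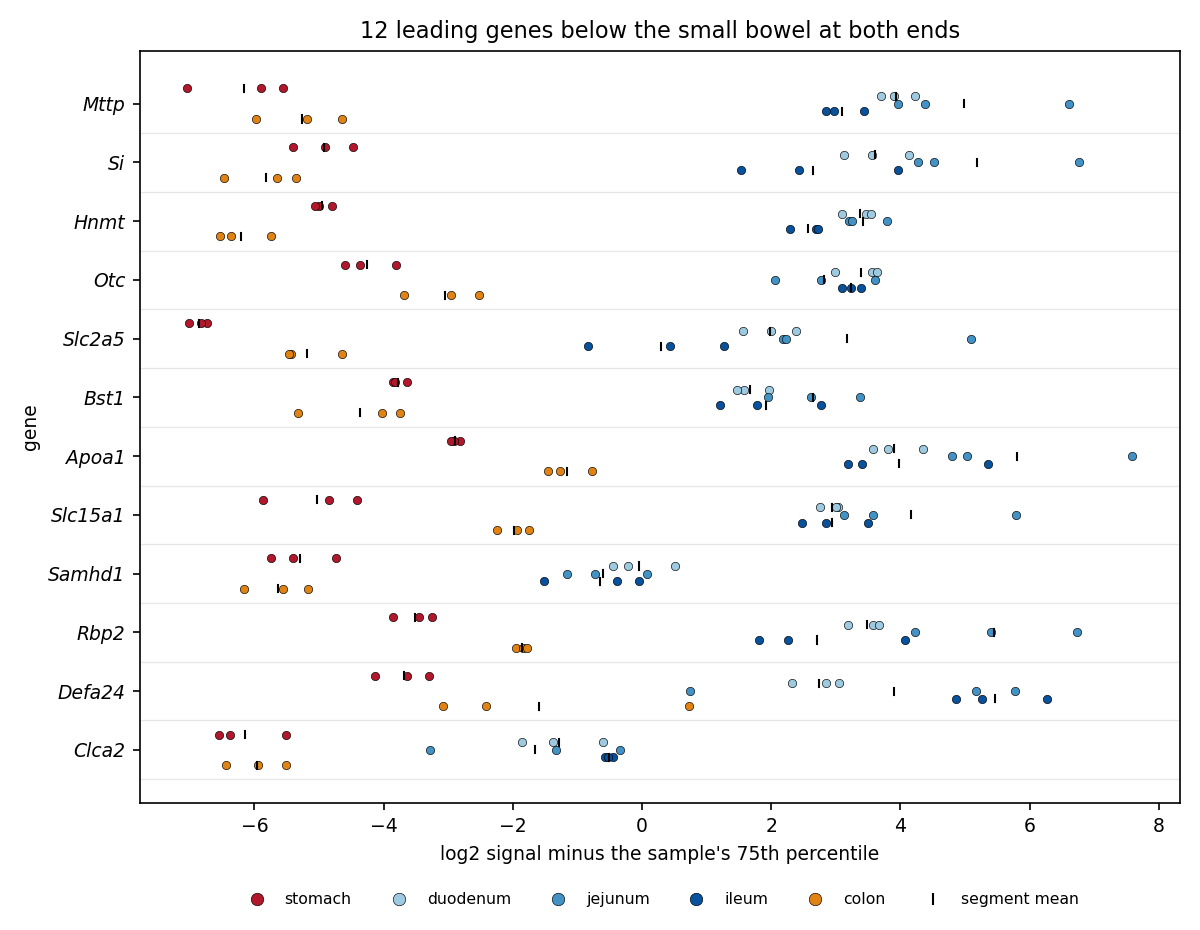
Log2 signal minus the sample's 75th percentile (horizontal axis) in each of the 15 samples for the 12 leading genes below the small bowel at both ends (vertical axis), with points coloured by segment and a black bar at each segment mean. The 9 small bowel samples of Si sit between 1.53 and 6.76 and the 6 end samples between -6.47 and -4.47.

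Promoters came from RefSeq's table for the rat build GRCr8, as the 250 bases before each gene start, for 879 of the 1637 lower and 1086 of the 3248 higher genes. The letters CAAAGTCC, part of the site that hepatocyte nuclear factor 4 binds, were found on either strand in 24 of 879 promoters of lower genes (2.73%), 6 of 1086 of higher genes (0.552%) and 148 of 12210 of all tested genes (1.21%). The other motifs were searched in the same way. GTTAAT (from the site of hepatocyte nuclear factor 1) was in 5.69% of lower, 3.59% of higher and 5.39% of all genes, and GATAAG, from the site of the zinc finger factors named for its first letters, in 5.35%, 5.06% and 5.41%. TATAAA (the TATA box) was in 7.28%, 8.38% and 10.5%, and GGGCGG (the GC box) in 57.5%, 56.6% and 48.7%. A match describes letters and is not a binding site. The 4 carriers of CAAAGTCC with the widest gap among the lower genes, chosen after their values were seen, are printed so that the match can be read in its surroundings. Each runs 5′ to 3′ on the strand of its gene, with capitals for the match, which in Rbp2, Slc3a1 and Cps1 is its reverse complement. They lie at chr8:107963292-107963541 (Rbp2, plus strand, the match starting 151 bases before the gene start), chr6:15394750-15394999 (Slc3a1, minus strand, 88 bases), chr9:76063613-76063862 (Cps1, plus strand, 70 bases) and chr17:83327122-83327371 (Malrd1, plus strand, 62 bases).
Rbp2: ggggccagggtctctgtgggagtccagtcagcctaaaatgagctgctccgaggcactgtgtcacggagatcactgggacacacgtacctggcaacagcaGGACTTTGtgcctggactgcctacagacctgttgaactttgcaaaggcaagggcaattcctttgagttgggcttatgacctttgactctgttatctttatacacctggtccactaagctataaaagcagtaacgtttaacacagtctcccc
Slc3a1: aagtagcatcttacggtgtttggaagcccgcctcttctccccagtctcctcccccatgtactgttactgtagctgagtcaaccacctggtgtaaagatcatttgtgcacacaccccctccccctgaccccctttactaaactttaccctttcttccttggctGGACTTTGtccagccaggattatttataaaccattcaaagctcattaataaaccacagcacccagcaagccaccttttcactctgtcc
Cps1: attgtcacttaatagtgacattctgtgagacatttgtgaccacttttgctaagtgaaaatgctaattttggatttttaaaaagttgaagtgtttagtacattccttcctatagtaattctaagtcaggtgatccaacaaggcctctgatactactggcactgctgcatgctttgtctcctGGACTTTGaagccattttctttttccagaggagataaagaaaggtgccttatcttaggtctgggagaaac
Malrd1: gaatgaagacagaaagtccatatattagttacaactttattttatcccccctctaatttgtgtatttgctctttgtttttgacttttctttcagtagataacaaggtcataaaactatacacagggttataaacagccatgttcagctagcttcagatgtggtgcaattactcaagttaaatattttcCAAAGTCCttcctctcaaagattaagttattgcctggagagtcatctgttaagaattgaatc

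Of these carriers, Rbp2 read -3.46, -3.25 and -3.85 in the stomach and -1.96, -1.84 and -1.79 in the colon, with the small bowel from 1.82 to 6.73 (median 3.67). The ends did not overlap the small bowel in any of the 4, which their choice by the widest gap favours. Slc3a1, the heavy chain of the cystine transporter, read -4.02, -3.70 and -3.65 in the stomach and -5.25, -6.85 and -6.12 in the colon, with the small bowel from -0.46 to 3.75 (median 1.38). It was at least 48.9-fold lower at the ends (-6.20 ± 0.40 SE, adjusted p = 8.17e-09). Cps1, the mitochondrial enzyme that opens the urea cycle, read -1.79, -1.73 and -2.09 in the stomach and -2.88, -2.94 and -2.23 in the colon, and its small bowel means were 2.94, 2.30 and 2.32. It was 28.0-fold lower (-4.81 ± 0.34 SE, adjusted p = 2.45e-08), and Malrd1 6.72-fold (-2.75 ± 0.37 SE, adjusted p = 4.08e-05).

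The gene lists below hold known genes of one function or cell type, and their counts are to be read beside 9.65% of all genes higher and 4.87% lower at both ends and a median difference of 0.10. Of the 14924 genes tested with an established symbol, the nearer background for such lists, 1373 were higher and 1058 lower. The share of lower genes among these is larger than 4.87%, so small counts of lower genes say little. Sugar uptake and fructose use had 9 of 12 tested genes lower and 0 higher (median difference -2.88). Beside Slc2a5 these included the fructose-handling enzymes Tkfc (21.0-fold) and Khk (11.2-fold), the gluconeogenic enzymes G6pc1 (7.95-fold) and Fbp1 (7.44-fold), the sodium-coupled carriers Slc5a11 (7.27-fold) and Slc5a1 (2.31-fold), and the sugar-sensing factor Mlxipl (2.97-fold). Tkfc was nearly as low in the stomach (19.2-fold) as in the colon (23.0-fold).

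Lipid uptake, re-esterification and lipoprotein assembly had 17 of 24 genes lower and 0 higher (median -2.66). Npc1l1, the cholesterol importer, read -4.69, -4.37 and -4.44 in the stomach and -0.34, -0.62 and -0.49 in the colon, with the small bowel from 2.60 to 5.91 (median 3.49). It was 67.8-fold lower (-6.08 ± 0.32 SE, adjusted p = 9.61e-10), 281-fold in the stomach and 16.4-fold in the colon. Apoa4, an apolipoprotein of chylomicrons, was 65.1-fold lower, its regulator Creb3l3 32.5-fold, Apoc3 28.1-fold (by probes at -4.85 and -2.93), the sterol exporter subunit Abcg5 22.1-fold, and Fabp2, which carries fatty acids in the cytosol, 16.1-fold. Apob, the backbone of chylomicrons, was 9.45-fold lower, with 1 of its 5 probes at -0.20, and the smallest difference counted was in Sar1b (2.01-fold), which buds chylomicron carriers.

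At the brush border, 4 of 8 disaccharidases and phosphatases were lower and 0 higher (median -1.65). They were Si, the alkaline phosphatase Alpi (22.8-fold), lactase, Lct (at least 5.43-fold), and Mgam (3.71-fold), and without ileum 2 the count was 2. Alpi was low in the ileum as well, at a mean of -1.04 against -1.53 in the stomach, and its end and small bowel samples overlapped. Of 14 peptidases, 5 were lower and 0 higher (median -1.61), led by the glutamyl aminopeptidase Enpep (58.6-fold, -5.87 ± 0.42 SE, adjusted p = 2.91e-08), for which 1 of 3 probes gave only -0.29, and by Mme, neprilysin (-3.32 ± 0.35 SE, adjusted p = 3.06e-06). Mep1b, a meprin subunit, shows what the requirement on sides leaves out: it was called lower (-3.32 ± 0.31 SE, adjusted p = 5.15e-07), but the colon mean of 3.04 lay just above the ileal mean of 3.00, and the stomach mean was -4.70.

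Of 15 amino acid and peptide transporters, 5 were lower and 1 higher (median -0.10). Slc7a9, the light chain that pairs with Slc3a1, was 41.2-fold lower (-5.36 ± 0.19 SE, adjusted p = 1.25e-11), Slc7a7 13.0-fold and Slc3a2 2.10-fold. Slc38a3, a glutamine carrier, was 1.65-fold higher, a call lost without stomach 2 (adjusted p = 0.083) or colon 3 (0.052). Of 21 genes for iron, calcium, phosphate and vitamins, 4 were lower and 1 higher (median -0.63). The lower ones were Rbp2, the ascorbate transporter Slc23a1 (14.7-fold), the cobalamin carrier Tcn2 (2.40-fold) and the iron importer Slc11a2 (1.65-fold). Bco1, which cleaves carotene, was the gene counted as higher, but its 2 probes went opposite ways, 1.65 and -2.94 on the log2 scale, so its direction is not settled.

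Of 10 genes of bile acid handling, 2 were lower and 0 higher (median -0.40), the exporter subunits Slc51b (11.8-fold) and Slc51a (7.14-fold), of which 1 was counted without duodenum 2. Xenobiotic metabolism and efflux had 8 of 37 lower and 1 higher (median -0.44). The related glutathione transferases Gsta2 and Gsta1 took opposite courses. Gsta2 read -1.91, -3.61 and -2.70 in the stomach and 0.33, 0.48 and 0.97 in the colon, with the small bowel from 3.37 to 8.68 (median 6.44), and was 148-fold lower at the ends (-7.21 ± 0.37 SE, adjusted p = 6.96e-10). Gsta1 read 5.61, 5.23 and 5.75 in the stomach and 1.01, 0.92 and 1.04 in the colon, with the small bowel from -3.55 to 0.89 (median -2.39). It was 28.9-fold higher (4.85 ± 0.20 SE, adjusted p = 8.53e-11), 138-fold in the stomach and 6.04-fold in the colon. The genes of this family are close in sequence, so which of them a probe reads is uncertain.

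Among transcription regulators of the small bowel, 8 of 25 were lower and 1 higher (median -0.96). Creb3l3 and Maf (5.56-fold) had the largest differences. Hnf4g, one of the hepatocyte nuclear factors 4, was 2.88-fold lower (-1.53 ± 0.26 SE, adjusted p = 0.00041). Hnf4a, the other, was counted as lower by the brighter of 2 probes that went opposite ways (-1.02 and 0.33) and was not called with them averaged (adjusted p = 0.27), so its direction is not settled. Nr5a2 (2.01-fold), the vitamin D receptor Vdr (1.95-fold) and Nr1i3 (1.81-fold) differed less. Vdr was not called without jejunum 3 or colon 1 (adjusted p = 0.054 and 0.051), nor Nr1i3 without stomach 1, stomach 3, duodenum 2 or colon 1 (0.052 to 0.074). Klf4, a factor of differentiated surface cells, was 2.87-fold higher, mostly in the colon (6.32-fold against 1.31-fold in the stomach). Cdx2, the intestinal identity factor, was not counted, since the stomach mean of -1.02 lay below and the colon mean of 6.51 above the small bowel means of 4.35 to 4.83.

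Hox genes had 10 of 25 members higher and 0 lower (median 0.74). Hoxa4 read -2.55, -2.58 and -2.05 in the stomach and 0.90 to 1.11 in the colon, and the small bowel ran from -6.20 to -3.09 (median -4.99). Of the 9 small bowel samples, 2 had it well above background, as did all end samples, and it was at least 9.58-fold higher (3.92 ± 0.32 SE, adjusted p = 1.17e-07), at least 2.92-fold in the stomach and at least 31.5-fold in the colon. The others were Hoxa9 (6.67-fold), Hoxa11 (3.53-fold), Hoxb7 (3.15-fold), Hoxd3 (3.03-fold), Hoxa5 (2.67-fold), Hoxc4 (2.52-fold), Hoxb6 (2.28-fold), Hoxa7 (1.70-fold) and Hoxc8 (1.65-fold). Hoxa7 was not called without stomach 2, stomach 3, duodenum 2 or jejunum 3 (adjusted p from 0.051 to 0.080), nor Hoxc8 without any one of the stomach, ileum and colon samples, duodenum 2 or jejunum 2 (0.053 to 0.11). The colon mean was above the stomach mean in each of the 10, and limma called the ends apart for Hoxa4, Hoxa9, Hoxa11, Hoxb7, Hoxa5 and Hoxc4. Hoxb13, which marks the hindmost gut, averaged 0.89 in the colon and -4.25 in the stomach, within the small bowel range of means from -4.44 to -3.97, and was not counted.

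Of 16 regulators of foregut and hindgut, 3 were higher and 1 lower (5 higher without ileum 1 and 7 with normexp, median 0.74). Foxa2, a forkhead factor of endoderm, read 4.55, 4.38 and 4.44 in the stomach and 4.42, 4.37 and 4.35 in the colon, and the small bowel ran from 1.51 to 2.23 (median 2.01). The ends lay together and above every small bowel sample, and their mean was 5.57-fold higher (2.48 ± 0.15 SE, adjusted p = 4.64e-09). Foxa3 (2.67-fold) and Foxd2 (1.00 on the log2 scale) were the other higher genes, and the T-box repressor Tbx3 was 7.97-fold lower (-2.99 ± 0.31 SE, adjusted p = 2.09e-06).

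Of 12 carbonic anhydrases, 3 were higher (Car2, Car11 at 5.68-fold and the hypoxia-linked Car9 at 1.82-fold) and 1 lower (Car8 at 1.58-fold, not called without stomach 1, adjusted p = 0.058), with a median difference of 0.72. Of 26 genes of acid, bicarbonate and chloride transport, 9 were higher and 1 lower (median 0.52). They included Slc12a2, which loads chloride for secretion (3.33-fold, and not called with its 2 probes averaged, adjusted p = 0.052), the colonic proton pump Atp12a (3.22-fold), the sodium-proton exchanger Slc9a2 (2.41-fold) and the sodium pump subunit Atp1b1 (1.90-fold). Atp1b1 was not called without stomach 1, stomach 2, duodenum 2 or colon 3 (adjusted p from 0.058 to 0.084). The chloride channel Cftr was counted by the brighter of 2 probes that went opposite ways (0.75 and -0.33), and it was not called without stomach 1, stomach 2, duodenum 2, jejunum 2, colon 1 or colon 2 (0.051 to 0.095). Slc4a4, a sodium bicarbonate cotransporter, was 1.87-fold lower.

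Among colonic surface genes, 5 of 18 were higher and 1 lower (median 0.74). The median was -0.26 for the stomach and 1.80 for the colon, so the list as a whole was raised only in the colon. Scnn1b, a subunit of the epithelial sodium channel, read 0.77, 0.70 and 0.77 in the stomach and 0.19, 0.27 and 0.36 in the colon, and the small bowel ran from -2.15 to -1.02 (median -1.54). Both ends were above every small bowel sample, and their mean was 4.25-fold higher (2.09 ± 0.21 SE, adjusted p = 1.45e-06). Its partner Scnn1a was 2.43-fold higher (by probes at 1.30 and 0.42 on the log2 scale), and Guca2b, uroguanylin, 7.54-fold lower. Of 9 genes of gastric surface and neck mucous cells, 2 were higher and 0 lower. Ctse, cathepsin E, was 36.0-fold higher in the stomach and 7.36-fold in the colon (4.03 ± 0.19 SE, adjusted p = 2.55e-10, for both ends), and the membrane mucin Muc1 29.5-fold and 6.42-fold (3.78 ± 0.26 SE, adjusted p = 2.00e-08).

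Mucin glycosylation had 9 of 23 genes higher and 1 lower. The median difference was 0.76 for both ends, 0.14 for the stomach and 1.59 for the colon, against 0.29 and 0.00 over all genes for the stomach and the colon. The sialyltransferase St3gal6 read 0.25, -0.13 and 0.38 in the stomach and -0.79, -0.86 and -1.24 in the colon, and the small bowel ran from -3.68 to -2.93 (median -3.23). It was 7.40-fold higher without overlap (2.89 ± 0.23 SE, adjusted p = 8.83e-08). The chain-extending B3gnt7 was 6.08-fold higher, St6galnac1 5.24-fold and St6galnac2 4.14-fold. St6galnac1 was 18.3-fold higher in the colon and not called in the stomach (adjusted p = 0.13), whereas St6galnac2 was 3.71-fold and 4.63-fold higher. Gcnt3, which starts mucin branches, was 3.04-fold lower. The goblet cell list held 9 tested genes, 3 of them lower and none higher (median 0.07). Its median was -0.92 for the stomach and 0.29 for the colon. Zg16 was 121-fold lower in the stomach and 2.57-fold in the colon, Muc13 154-fold and 1.64-fold (not called in the colon, adjusted p = 0.091), and Clca1 was the other.

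Of 14 Paneth cell and antimicrobial products, 7 were lower and 0 higher (median -4.13). Beside the defensins Defa6 (105-fold, its log2 difference of -6.72 moving to -7.55 without colon 1 and -6.06 without jejunum 3) and Defa24, they were the lectins Reg3b (at least 59.0-fold, a bound because of saturation in the small bowel), Reg3g (25.3-fold) and Reg4 (18.9-fold), the lysozyme Lyz2 (24.7-fold) and the protease Mmp7 (12.4-fold, -3.64 on the log2 scale and -3.05 without jejunum 3). Reg4 was low at both ends, by 22.0-fold in the stomach and 16.2-fold in the colon. Reg3g was 88.5-fold lower in the stomach and 7.23-fold in the colon, and the ends differed (adjusted p = 0.00011).

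Of 24 hormone genes, 5 were lower and 3 higher (median -0.07). The lower ones are products of small bowel endocrine cells. Gip, the glucose-dependent incretin, read -0.06, 0.14 and -0.07 in the stomach and -1.95, -1.70 and -2.40 in the colon, with the small bowel from 1.39 to 7.51 (median 4.50). It was 46.4-fold lower (-5.54 ± 0.36 SE, adjusted p = 8.37e-09), and both of its probes gave about the same difference (-5.53 and -5.57). The others were the tachykinin gene Tac1 (19.7-fold), secretin, Sct (15.8-fold), cholecystokinin, Cck (10.2-fold), and neurotensin, Nts (9.84-fold). The higher ones were the histamine-forming enzyme Hdc (4.63-fold) and the granins Scg5 (1.63 ± 0.22 SE, adjusted p = 3.86e-05) and Scg3 (1.93-fold), none of them called in the colon alone. Probes of Scg5 were at 1.63 and 0.42 on the log2 scale.

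Of 32 Wnt, BMP and hedgehog genes, 7 were higher and 0 lower (median 0.30, and 4 higher without jejunum 3, without colon 3 or with all colon samples averaged). Sfrp2, a secreted Wnt antagonist, was 14.7-fold higher (3.87 ± 0.34 SE, adjusted p = 3.30e-07), 83.9-fold in the colon and 2.56-fold in the stomach. Another of its 3 probes, at 1.32, was used when a colon sample was left out, and the difference was then 1.43 without colon 1, 1.16 without colon 2 and 1.27 without colon 3. Wnt11 was 20.3-fold higher in the stomach and not called in the colon (adjusted p = 0.16). Of 18 prostaglandin genes, 4 were higher and 2 lower (2 higher without ileum 2, median 0.20). Prostacyclin synthase, Ptgis, read -0.18, -0.54 and -0.16 in the stomach and 0.33, -0.39 and 1.07 in the colon, and the small bowel ran from -4.86 to -3.05 (median -3.51). It was 13.7-fold higher (3.78 ± 0.36 SE, adjusted p = 7.24e-07), with a stomach minus colon difference of -0.70 ± 0.57 SE.

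Among crypt genes, the stem cell product Olfm4 was 12.6-fold lower and the progenitor factor Sox9 2.66-fold higher, out of 12 tested (median 0.17). The list's median was -0.06 for the stomach and 0.59 for the colon. The size for Sox9 rested on the probe, with probes at 1.36, 1.66, 0.43 and 0.07 on the log2 scale. Cell proliferation had 3 of 28 lower and 0 higher (7 lower without jejunum 1, median -0.46). Its median was -0.94 for the stomach and 0.31 for the colon, so the list as a whole was not lower in the colon. Oxidative phosphorylation had 6 of 37 higher and 1 lower (median 0.13), but 6 and 7 with quantile normalisation. Its median was -0.12 for the stomach and 0.39 for the colon. Cytosolic ribosomal proteins had 1 of 39 higher and 0 lower (median 0.14), but 1 and 3 with quantile normalisation and 1 and 4 with normexp. Their median was -0.51 for the stomach and 0.86 for the colon. Keratins had 0 of 12 counted either way (median 0.09). Claudins and tight junctions had 4 of 23 lower and 1 higher (2 lower without jejunum 1 or without colon 2, median -0.32), led by the small bowel cation pore Cldn15 (6.68-fold, -2.74 ± 0.23 SE, adjusted p = 2.15e-07). The list's median was -0.20 for the stomach and 0.12 for the colon.

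The remaining lists had few genes counted, and counts of 1 or 2 often moved by 1 gene when a sample was left out. Ketogenesis and fatty acid oxidation had 3 of 28 higher and 3 lower (median -0.20), 5 and 5 with quantile normalisation. The list's median was -0.82 for the stomach and 0.55 for the colon. The carnitine carrier Slc25a20 was 3.54-fold lower. Potassium channels had 1 of 20 higher and 1 lower (7 and 2 with normexp), and aquaporins 1 of 11 higher and 2 lower, among them Aqp11 (5.34-fold lower). The other lower one, Aqp7, was not called without stomach 1, stomach 3, duodenum 2, duodenum 3, ileum 2, ileum 3, colon 1 or colon 3 (adjusted p from 0.053 to 0.10). Squamous epithelium had 0 of 8 either way and smooth muscle 1 of 9 higher. Enteric neurons and glia had 1 of 12 higher, and B cells and plasma cells 1 of 7. Myeloid cells had 1 of 11 lower, which was Lyz2, a gene of the Paneth cell list as well, and mast cells 1 of 10.

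**Figure D3:**
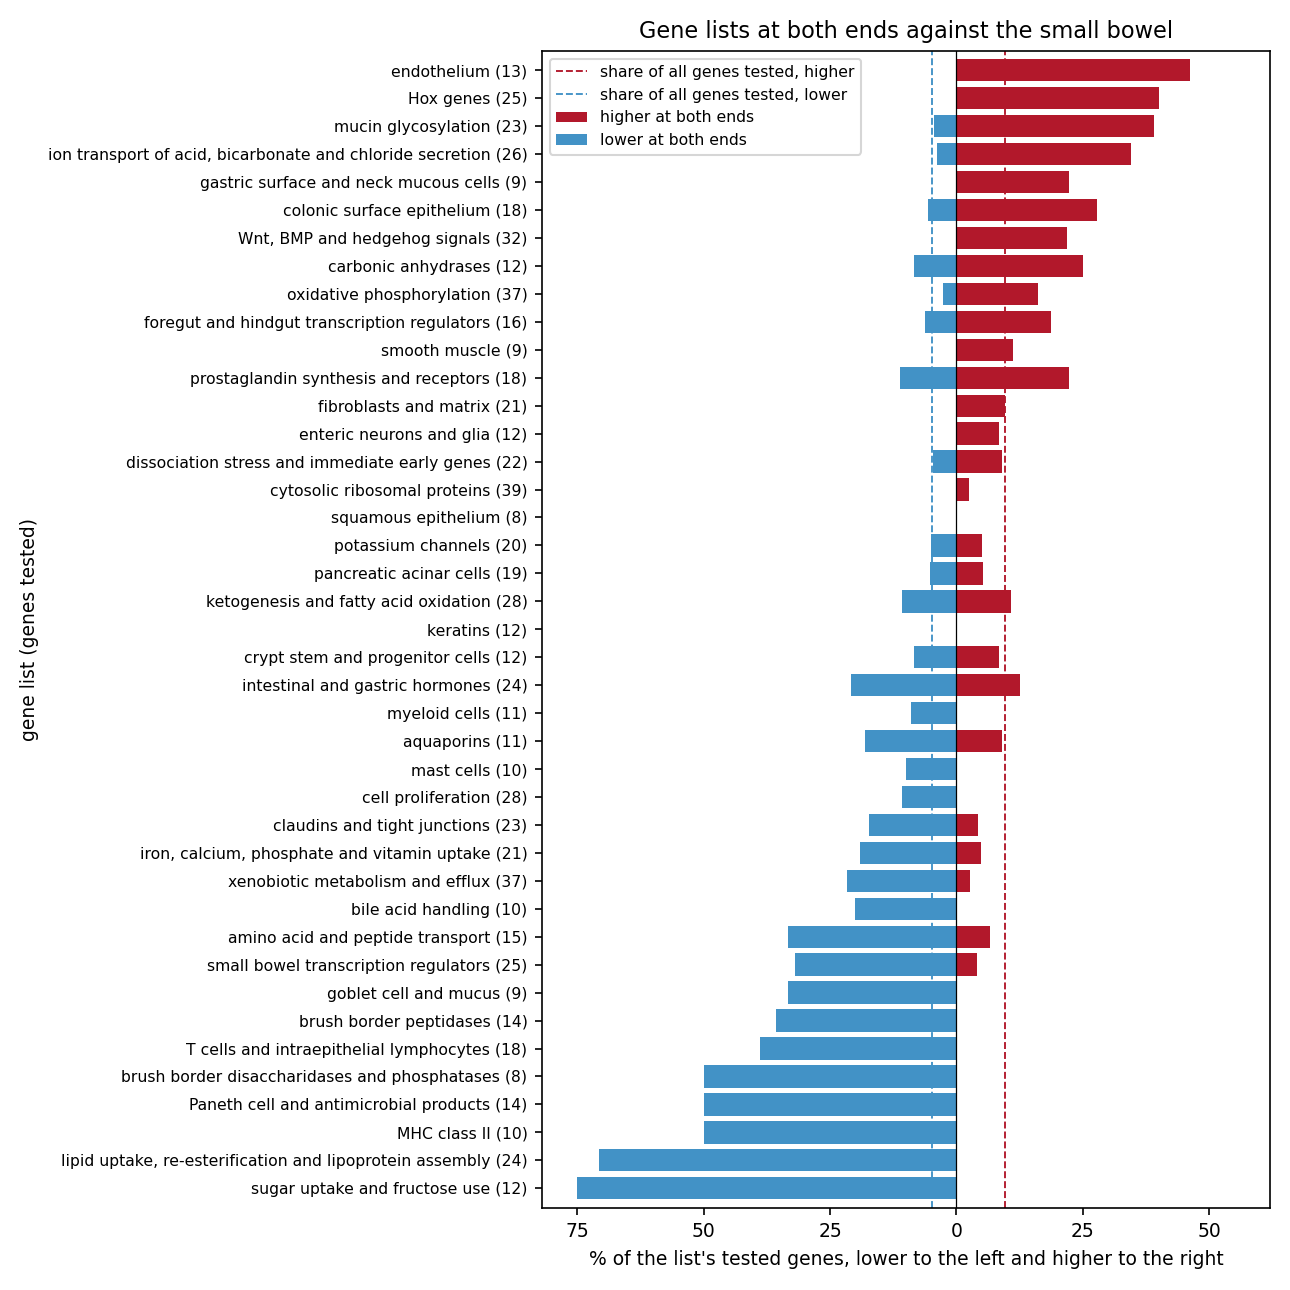
Percentage of each gene list's tested genes (number in brackets) that was higher (bars to the right) or lower (bars to the left) at both ends than in the small bowel, for lists with at least 8 tested genes. Dashed lines mark the shares over all genes tested, 9.65% higher and 4.87% lower, and sugar and lipid uptake have 9 of 12 and 17 of 24 genes to the left.

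Lists for cells other than epithelium were described in the same way. T cells and intraepithelial lymphocytes had 7 of 18 genes lower and 0 higher (median -0.95). Granzyme A, Gzma, was 20.7-fold lower (-4.37 ± 0.35 SE, adjusted p = 8.83e-08), the receptor chain Cd3g 9.18-fold (-3.20 ± 0.21 SE, adjusted p = 8.17e-09) and the co-receptor Cd8a 2.71-fold. The list's signal, summed on a linear scale relative to the 75th percentile, was 11.2 to 12.2 at the ends and, without overlap, 16.8 to 70.4 in the small bowel. MHC class II had 5 of 10 lower and 0 higher (3 lower without duodenum 2 or with probes averaged, median -1.53), with Cd74, the invariant chain, 7.85-fold lower and highest in the ileum (mean 4.36, against 1.08 in the duodenum and 1.66 in the jejunum). Its summed signal was 7.95 to 8.79 in the stomach, 29.1 to 34.8 in the colon and 15.9 to 73.7 in the small bowel, so the colon overlapped the small bowel. In bulk samples such as these, fewer cells of a type and less RNA per cell cannot be told apart.

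Endothelium had 6 of 13 genes higher and 0 lower (median 0.87), and 3 higher with all colon samples averaged. They were the junction protein Esam (5.06-fold, 2.34 ± 0.32 SE, adjusted p = 4.10e-05), von Willebrand factor, Vwf (3.09-fold), the receptor Tek (2.87-fold), Eng, Tie1 and Egfl7. Eng was not called without stomach 1, stomach 2, duodenum 2, jejunum 3, colon 1 or colon 3 (adjusted p from 0.053 to 0.078), nor Tie1 without stomach 2 (0.063), nor Egfl7 without stomach 1 or colon 1 (both 0.055). The vessel markers Cdh5 and Pecam1 did not pass, at 0.25 and -0.12. The summed endothelial signal was 17.8 to 19.2 in the stomach, 5.23 to 6.32 in the colon and 3.00 to 7.91 in the small bowel, so the stomach alone stood apart. Fibroblasts and matrix had 2 of 21 genes higher and 0 lower (6 higher with normexp, median 0.72), Pdgfrb (4.09-fold) and Col6a3 (1.97-fold), and a summed signal of 73.7 to 92.3 in the stomach, 6.78 to 7.31 in the colon and 5.97 to 11.9 in the small bowel.

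The stomach also stood apart in red blood cell genes (12.2 to 14.7, against 1.29 to 1.57 in the colon and 1.43 to 5.22 in the small bowel), of which 0 of 4 counted. Pancreatic acinar genes had a summed signal of 127 to 248 in the stomach against 9.53 to 19.5 in the other samples. Their median difference between stomach and small bowel was only 0.36, against 0.29 over all genes, so the list as a whole was not raised there. At both ends, 1 of 19 was higher and 1 lower. The higher one was the phospholipase Pla2g1b, saturated in all 3 stomach samples (at least 25.0-fold, a bound for that reason). Immediate early genes, which respond to cell isolation, were at 102 to 121 in the stomach, 724 to 928 in the colon and 170 to 673 in the small bowel, with 2 of 22 higher (1 without stomach 2) and 1 lower. The part of these cells or of isolation in the differences of other genes was not tested.

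**Figure D4:**
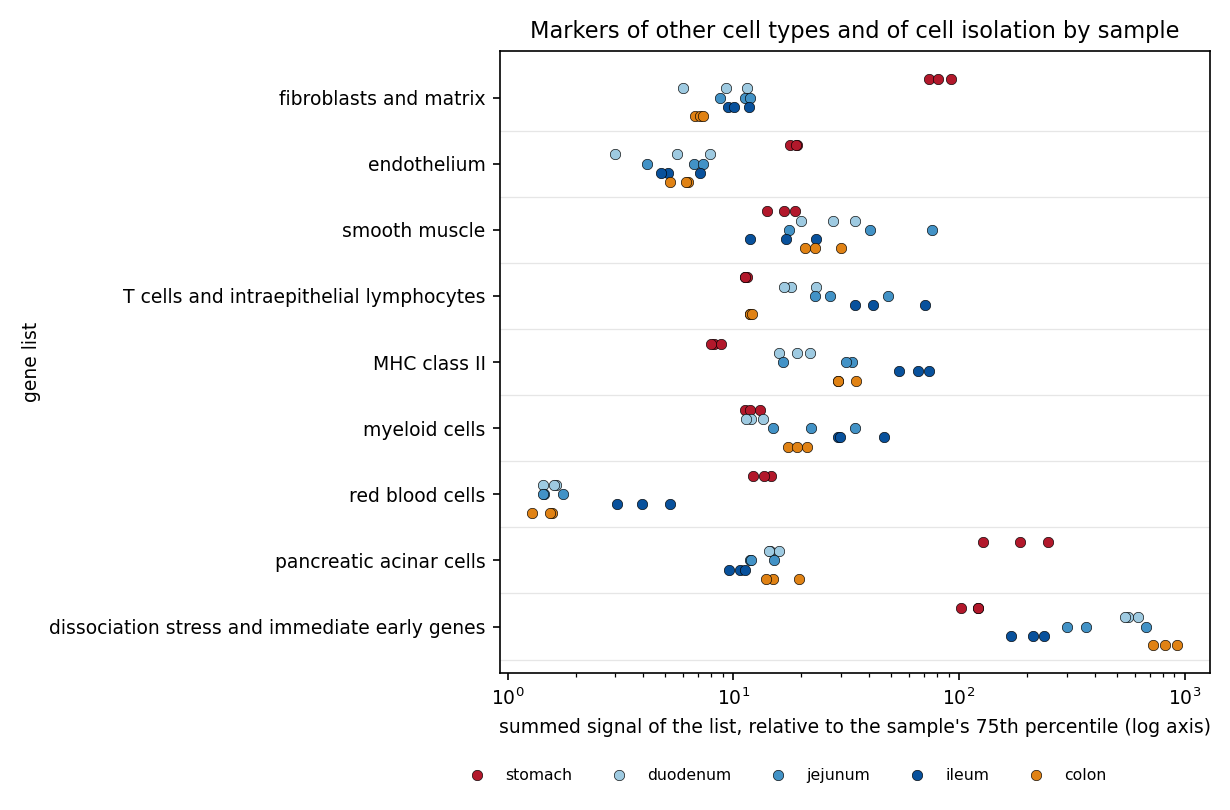
Summed signal of marker lists relative to the sample's 75th percentile (horizontal axis, logarithmic) in each of the 15 samples, coloured by segment, for other cell types and for genes that respond to cell isolation (vertical axis). The T cell list lies at 11.2 to 12.2 at the ends and 16.8 to 70.4 in the small bowel, whereas the fibroblast list sets the stomach apart at 73.7 to 92.3.

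Stomach and colon were then compared with each other within the genes counted. The rule did not use this contrast, although asking for both on one side favours genes with like ends. Stomach and colon shared no slide, scan day or version of the scanner software. The stomach was scanned at 10 micrometres per pixel and the colon at 5. A batch and the difference between the ends therefore cannot be told apart either. Limma called the ends apart for 814 of the 3248 higher genes (25.1%) and 579 of the 1637 lower genes (35.4%), beside 35.3% of all genes tested. Of the 814, 370 were higher in the stomach and 444 in the colon, and without stomach 3 the count of 814 was 488. Of the 579, 167 were higher in the stomach and 412 in the colon. Among genes with established symbols, those furthest toward the stomach were Atp4a, Pla2g12a, Ralb and Pga5, and those furthest toward the colon Aoc1, Thbs4, Zp2 and Casp1.

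Atp4a, which forms the catalytic part of the acid pump of parietal cells, read 6.04, 5.56 and 5.82 in the stomach and -2.44, -2.12 and -1.78 in the colon, with the small bowel from -5.14 to -2.48 (median -3.90). The lowest colon sample lay just above the highest small bowel sample, and the stomach far above both. Atp4a was 824-fold above the small bowel in the stomach and 3.26-fold in the colon, and its second probe gave 1.85 for both ends against 5.73. Pga5, a pepsinogen, was 81.9-fold higher in the stomach and not called in the colon (adjusted p = 0.075). Pla2g12a, a secreted phospholipase, was at least 180-fold lower in the colon and 1.82-fold in the stomach. Ralb, a small GTPase, was at least 53.7-fold lower in the colon and not called in the stomach (adjusted p = 0.15).

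Toward the colon, Aoc1, the diamine oxidase that breaks down histamine, read -5.17, -5.03 and -3.95 in the stomach and 2.74, 2.61 and 3.18 in the colon, with the small bowel from 3.02 to 4.48 (median 4.03). The colon overlapped the small bowel, and Aoc1 was 401-fold lower in the stomach and 2.17-fold in the colon. Casp1, the inflammatory caspase, read -3.53, -3.62 and -3.38 in the stomach and 3.16, 3.29 and 3.17 in the colon, with the small bowel from 3.94 to 5.19 (median 4.61). Here both ends lay below every small bowel sample, and the means were 264-fold lower in the stomach and 2.60-fold in the colon. Zp2 was 144-fold lower in the stomach and not called in the colon (adjusted p = 0.62). The matrix protein Thbs4 was 195-fold higher in the colon and not called in the stomach (adjusted p = 0.33), with the spots of 2 samples left out as non-uniform or outlying.

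**Figure D5:**
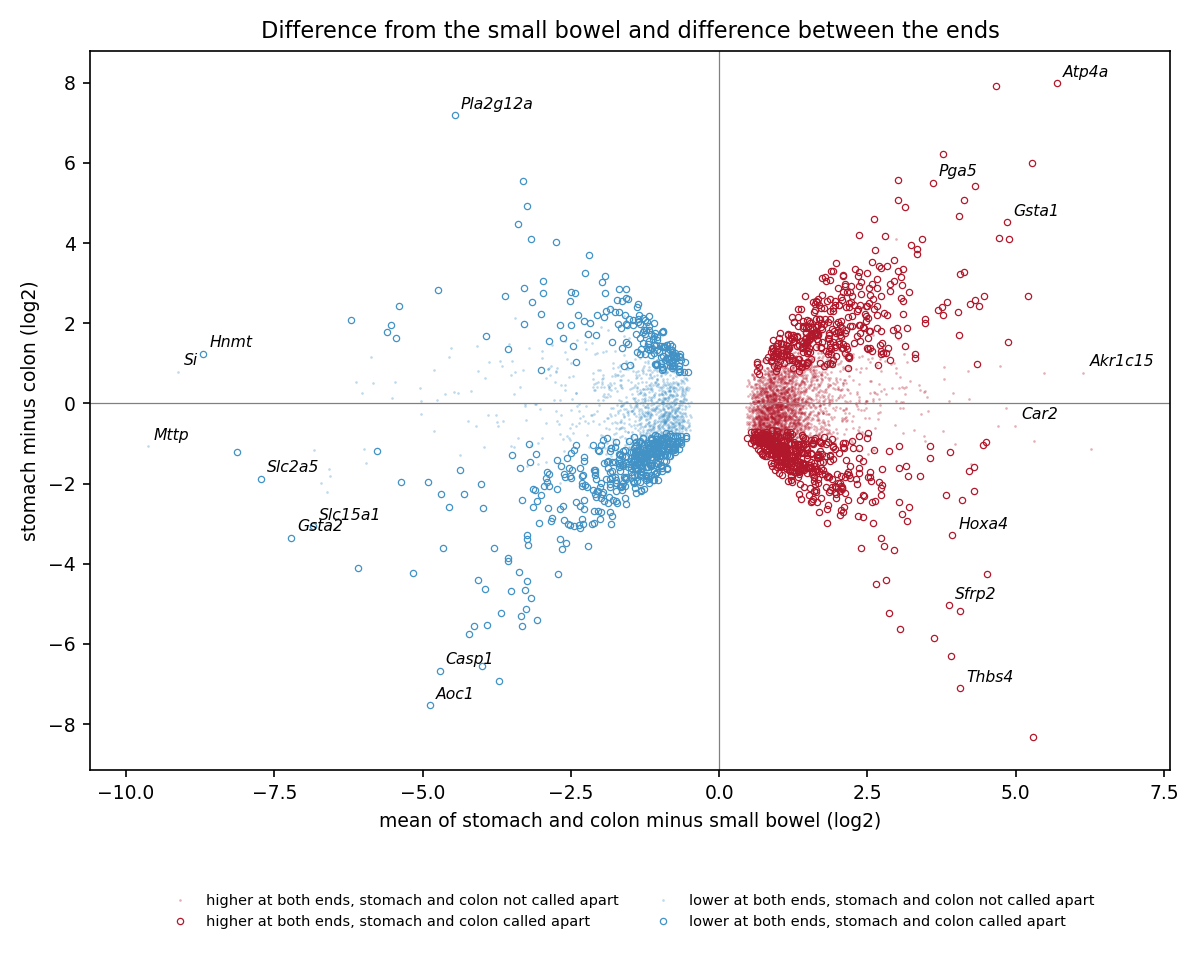
Mean of stomach and colon minus small bowel (horizontal axis, log2) against stomach minus colon (vertical axis, log2) for the 3248 genes higher (red) and the 1637 genes lower (blue) at both ends, with open circles for genes whose ends were called apart and small dots for the others. Car2 (-0.55) and Si (0.79) lie near 0 on the vertical axis, and Atp4a (7.98) and Aoc1 (-7.53) far from it.

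An F test over duodenum, jejunum and ileum called 91 of the 3248 higher genes (2.80%) and 130 of the 1637 lower genes (7.94%), beside 3.67% of all genes. Among the higher genes, the small bowel segment with the highest mean, the nearest to the ends, was the ileum in 1903, the duodenum in 764 and the jejunum in 581. Among the lower genes, the segment with the lowest mean, the nearest to the ends, was the ileum in 642, the jejunum in 606 and the duodenum in 389. Their highest mean was in the duodenum in 596, the ileum in 574 and the jejunum in 467. Such counts were not made over all genes, so they are not read as a trait of the genes counted. The ileum samples also shared no slide or scan day with the duodenum and jejunum.

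The requirement on sides divides genes of nearly equal values. On the higher side, Echs1 (stomach 5.29, duodenum 5.29) and Pan3 (stomach 2.05, duodenum 2.05) were just inside, and Grhl3 (stomach -3.60, ileum -3.60) and Entpd2 (colon 2.40, jejunum 2.41) just outside. On the lower side, Bop1 (colon -0.03, jejunum -0.03) and Dapk3 (colon 0.69, jejunum 0.69) were just inside, and Brms1 (colon 1.41, duodenum 1.41) and Gramd1c (stomach -2.91, ileum -2.91) just outside. Without colon 1, the calls of Pan3, Grhl3, Bop1, Brms1 and Gramd1c were lost (adjusted p from 0.053 to 0.105), and other single samples ended those of Pan3, Grhl3 and Brms1.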

How the data were processed

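Transcripts were measured on 2-colour Agilent rat arrays in 15 samples, each read in the channel of its labelled dye. Per the file headers, the deposited processed signals are intensities, background-subtracted and dye-normalised by scanner software whose version differed between segments (8.5.1.1 for the stomach, 9.5.1.1 or 9.5.3.1 for the small bowel, 10.1.1.1 for the colon). The deposited value table held the same intensities, within 0.02 on the log2 scale for 100.0% of 43628 spots. GeneSpring steps named in the text of the series were not applied.

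Non-uniform and outlier spots were left out. From each log2 signal its sample's 75th percentile was subtracted. A probe was kept if some segment had it well above background in all of its samples (38846 probes), and the brightest stood for its gene. Names in the files were updated through RefSeq tables (10735 probes by accession, 5571 by symbol, 3729 by older symbol, 20977 unchanged), and 14924 genes tested had an established symbol. Limma 3.58.1 in R 4.3.3 fitted segment and dye with an intensity trend, taking slide as a random block (correlation 0.361, with 9 residual degrees of freedom left). Tests were two-sided with Benjamini-Hochberg adjustment over all genes, and errors are SE of the fit. Limma called 0 genes for dye (635 at an unadjusted p under 0.05). The code was tested on simulated data. Alternatives changed 1 choice at a time, except that normexp also started from median signals in place of the processed ones.

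Genes were named if among the 12 with the widest gap each way, the 5 markers, the list members with the largest differences or against their list, the 4 most apart between the ends each way, and the nearest inside and outside the rule. Other list members were chosen after their values were seen. The members and lists were chosen with earlier results of these data known. A fold written "at least" is a bound set by background or saturation. Where no sample of a segment passed as well above background, each takes the higher of its own signal and the dimmest one passing. In segments with some samples passing, dim samples kept their own signal. A fold without "at least" can therefore rest partly on dim samples, as for Malrd1, which passed in 1 colon sample. The number of arrays limits the precision.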

Additional observations from a re-analysis of the deposited data

Results flagged for a closer look

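Single samples stood apart from the rest of their side for 5 of the leading genes below the small bowel. Jejunum 1 was the highest small bowel sample by a wide margin for Mttp (6.61), Apoa1 (7.59) and Slc15a1 (5.79). Colon 3 was the lowest end sample for Bst1 (-5.32), and colon 1 the highest for Defa24 (0.73). Among other named genes, jejunum 1 stood apart from the other small bowel samples for Apob (5.53), Hoxa5 (1.18) and Slc3a2 (3.71). Duodenum 2 stood apart for Hoxb6 (-4.03) and Hoxc8 (-1.15), and colon 3 for Hoxb6 (-0.9955) and Reg4 (-0.84). These are log2 levels relative to the 75th percentile, and they were 12 of 138 checks over 69 genes. The nominal rate of about 1 in 20 for each check holds for samples of 1 population. Each side pooled segments that can differ in mean, so the 12 cannot be set against that rate. Jejunum 1 was also among the samples with the fewest probes well above background (52.2%).

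Stomach and colon differed, by the test of that difference, for several leading or marker genes that lay on one side of the small bowel. As stomach minus colon on the log2 scale, the differences were 2.68 for Pls3, 0.97 for Sftpd, -1.69 for Ndrg2, 1.24 for Hnmt, -1.88 for Slc2a5, -3.06 for Slc15a1 and -3.29 for Hoxa4. For the genes named as most different between the ends they were 7.98 for Atp4a, 7.20 for Pla2g12a, 5.54 for Ralb, 5.51 for Pga5, -7.53 for Aoc1, -7.10 for Thbs4, -6.93 for Zp2 and -6.67 for Casp1. For other genes among the 69 checked they were -6.86 for Car1, 2.16 for Cdh5, -7.53 for Cdx2, -2.02 for Fabp2, -3.89 for Fabp6, -1.96 for Fbp1, -1.52 for Hoxa5, -5.04 for Hoxb13, -1.66 for Hoxc4, -7.81 for Mep1b and 1.55 for Slc5a11. Genes named only by the rule for lists, or for lying next to the limit of the side requirement, were not checked here.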

How the results depend on the processing

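Counts of genes higher and lower at both ends ran over 2247 to 4108 and 1264 to 2329 across the other settings tried, and over 2427 to 3486 and 1370 to 1951 with single samples left out. With scan day as the random block they were 2463 and 1322, of which 2462 and 1321 were also counted with slide as the block. Normexp, run on median signals because the colon files hold no mean signals, gave 3796 and 1805, sharing 2459 and 1215. Counts of genes that also differed between stomach and colon moved more, and the cause was not tested. They were 462 of the higher and 371 of the lower genes with all colon samples averaged, 1259 and 962 without duodenum 2 and jejunum 1 (scanned on a day of their own), and 1106 and 955 without jejunum 1 and ileum 1, an alternative chosen after seeing the data. With single samples left out they ran from 488 to 978 and from 386 to 786. With the replicate number as a block the counts were 3782, 1701, 855 and 579. Same-numbered samples of different segments showed no common deviation from their segment means (30 pairs, correlations from -0.42 to 0.29, of which 7 were over 0.1). Samples of different segments on 1 slide carried different numbers and did deviate together (3 pairs, 0.49 to 0.55). With slide and number crossed in this way, the check cannot tell whether the numbers pair the samples.

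Of 210 named genes, 32 lost their call under at least 1 of 32 alternatives, and Bco1 and Cftr turned their direction. Cftr was at -0.28 with the colon averaged. Bco1 was at -0.60 with its probes averaged, at -2.96 with the colon averaged and from -3.04 to 2.04 with single samples left out, where either of its probes could be the brighter. Signal near background, in the small bowel for several leading higher genes and at the ends for several lower ones, limits their folds to bounds.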
